A study of Mus musculus with 16 samples.

Results

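The blood vessels and meninges of the medial prefrontal cortex were examined through 33 marker genes, listed by symbol for endothelial cells (17 genes), pericytes (8 genes), vascular smooth muscle (3 genes) and fibroblasts (5 genes). All 33 were found among the 18424 genes of the deposited table. The mice were C57BL/6N males at postnatal day 120, and were wild type (WT) or carried 1 copy (HT) of a CRISPR-made deletion that removes exon 5 of Arid1b, a subunit of the SWI/SNF chromatin remodeler, and that is carried by every cell of the animal. From postnatal day 3 to 21 their dams drank 0.2% saccharin water alone (vehicle, Veh) or with 0.1 mg/ml fluoxetine (Flx), a serotonin-reuptake inhibitor, so the pups received the drug through milk and had been off it for the rest of their lives. Genotype and treatment gave 4 groups of 4 mice: vehicle (WT-Veh) and fluoxetine (WT-Flx) in wild types, and the same pair in heterozygotes (HT-Veh, HT-Flx). Nothing in the labels says whether mice of a group came from separate litters, so p-values measure only the spread between these samples, which may be partly technical.

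Brain capillaries are tubes of endothelial cells that are sealed by tight junctions and carry dedicated nutrient transporters, and that together form the blood-brain barrier. Pericytes wrap the capillaries and share a basement membrane with them, whereas smooth muscle cells ring the arteries and arterioles and contract to set blood flow. Fibroblasts lie around larger vessels and in the meninges, where they deposit collagen and small proteoglycans. Bulk tissue was sequenced, so a lower value can mean fewer cells of a class or less RNA per cell, and these cannot be told apart.

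RefSeq (GRCm38.p6) promoter windows, from 250 bases before to 50 bases after a gene start, were at hand for 22 of the 33 genes. Windows of 5 genes that the results below turn on are printed 5′ to 3′ on the strand of the gene, with AGGAAG or its reverse complement CTTCCT in capitals. This is the core bound by ETS factors, of which Erg is one, and ETS factors are known regulators of endothelial genes.
Acta2, chr19:34255324-34255623, minus strand: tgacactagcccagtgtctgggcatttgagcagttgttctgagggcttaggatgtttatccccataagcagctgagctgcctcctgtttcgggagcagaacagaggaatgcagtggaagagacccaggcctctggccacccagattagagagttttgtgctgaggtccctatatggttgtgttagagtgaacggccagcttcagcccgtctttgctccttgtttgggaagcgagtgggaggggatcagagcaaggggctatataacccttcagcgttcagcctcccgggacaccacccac
Abcc9, chr6:142702225-142702524, minus strand: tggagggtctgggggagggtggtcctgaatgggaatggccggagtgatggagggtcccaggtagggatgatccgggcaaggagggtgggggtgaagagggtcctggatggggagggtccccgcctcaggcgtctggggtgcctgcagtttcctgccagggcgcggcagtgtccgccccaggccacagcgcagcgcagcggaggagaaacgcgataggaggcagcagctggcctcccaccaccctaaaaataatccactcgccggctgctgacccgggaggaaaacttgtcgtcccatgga
Vtn, chr11:78498870-78499169, plus strand: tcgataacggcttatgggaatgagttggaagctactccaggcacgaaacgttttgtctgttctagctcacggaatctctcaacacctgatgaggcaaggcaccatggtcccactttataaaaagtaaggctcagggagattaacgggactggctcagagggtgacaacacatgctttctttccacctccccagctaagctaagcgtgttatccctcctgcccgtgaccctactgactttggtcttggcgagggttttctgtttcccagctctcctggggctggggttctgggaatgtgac
Flt1, chr5:147725962-147726261, minus strand: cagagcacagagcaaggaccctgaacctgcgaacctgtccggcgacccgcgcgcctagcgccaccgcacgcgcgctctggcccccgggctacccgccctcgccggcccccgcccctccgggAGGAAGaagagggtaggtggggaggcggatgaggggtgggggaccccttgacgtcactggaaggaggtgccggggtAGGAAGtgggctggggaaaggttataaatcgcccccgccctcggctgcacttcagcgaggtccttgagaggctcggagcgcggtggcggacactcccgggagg
Tie1, chr4:118489800-118490099, minus strand: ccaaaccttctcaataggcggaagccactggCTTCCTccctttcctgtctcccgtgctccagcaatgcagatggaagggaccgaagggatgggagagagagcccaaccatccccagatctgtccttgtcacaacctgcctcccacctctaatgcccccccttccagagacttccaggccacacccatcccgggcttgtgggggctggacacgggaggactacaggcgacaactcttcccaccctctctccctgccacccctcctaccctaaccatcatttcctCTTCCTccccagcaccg
Flt1 and Tie1, both endothelial, each held 2 such cores, and Acta2 of smooth muscle and the pericyte genes Abcc9 and Vtn held none. Over the list, 8 of the 13 endothelial genes with a window had at least 1 core (Abcb1a, Emcn, Eng, Erg, Flt1, Ly6c1, Slco1a4 and Tie1). None of the 6 pericyte genes with a window did, beside 10383 of the 27025 genes of the RefSeq table. The Abcb1a window (chromosome 5, 8566841 to 8567140) lies far before the start of that gene in GENCODE (8660077). Counted by window, 8 of the 16 endothelial windows held the core, beside 35.4% of the 32851 windows of the RefSeq table. The CArG box, the element bound by serum response factor and known from contractile genes, was searched on both strands too. In its strict form (CC, a run of A or T, GG) it was found in 1 Igf2 window and in 1.63% of all windows, and not in the Acta2 window. With 1 letter off allowed, a form added after the strict search, the Acta2 window held 2 matches, and 21.1% of all windows held at least 1. A match describes letters and no binding was measured.

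Every gene of the list had a normalized read count of at least 10 in every mouse, so all 33 passed the filter on low values in every fit. Normalized read counts are estimated reads per gene divided by a factor for each sample, and the depth behind them is unknown. Per kilobase of merged exon, the highest mean levels over the 16 mice belonged to Slc2a1, the glucose transporter of the barrier (882), Rgs5, a pericyte G-protein regulator (774), and Vtn, which encodes the secreted protein vitronectin (734). They were followed by the tight-junction gene Cldn5 (455) and by Ly6c1 (443), whose near-identical copy Ly6c2 makes its level uncertain. The median level per kilobase was 134 for the endothelial genes, 133 for smooth muscle, 65.4 for the pericyte genes and 42.6 for the fibroblast genes. Defining markers of each class were thus present in the dissected cortex of every mouse.

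The vascular genes varied more between mice of one group than most genes. Of the 30 members with a mean of at least 100, 24 had a within-group SD above the median of all 12542 genes with such a mean. The median SD on the log2 scale was 0.23 for those members and 0.17 for all such genes. Over the 16 mice, the ratio of the highest to the lowest value ran from 1.28 for Pecam1, an adhesion molecule of endothelial junctions, to 3.94 for Anpep, a pericyte aminopeptidase. By class, the median within-group SD was 0.22 for the endothelial genes, 0.26 for the pericyte genes, 0.28 for smooth muscle and 0.27 for the fibroblast genes.

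The members not named in a comparison below are given here by their ranges over the 16 mice. Among the endothelial junction genes, Cdh5, which encodes VE-cadherin, ran from 370.5 to 649.95 and Pecam1 from 525 to 669. The transporters of the barrier ran from 2405 to 4004 (Slc2a1), from 1033 to 1604 (Abcb1a, a drug efflux pump), from 1235 to 2303 (Slco1a4, an organic anion carrier) and from 471 to 745 (Mfsd2a, a lipid carrier). Among the receptors, Kdr, the main receptor for vascular endothelial growth factor, ran from 314 to 572, Tek, the angiopoietin receptor, from 326 to 607, and Eng, a co-receptor for the TGF-beta family, from 578 to 967. Erg, the ETS factor of the list, was the endothelial gene of lowest mean, with values from 133 to 236. In pericytes, Pdgfrb, the receptor that recruits these cells to vessels, ran from 655 to 991, Rgs5 from 2646 to 4813, and Kcnj8, which neighbours Abcc9 on chromosome 6 and encodes the other subunit of its channel, from 60.6 to 115. Anpep ran from 73.7 to 289.96 and Higd1b, the least abundant member, from 28.6 to 64.8. In fibroblasts, Col1a1 and Col1a2, the chains of collagen I, ran from 161 to 318 and from 466 to 603, the proteoglycan gene Lum from 53.5 to 107, and Igf2, a growth factor of the meninges, from 1326 to 2256. The lowest value of a member was in HT-Flx replicate 2 for 10 of the 33 genes, in HT-Flx replicate 4 for 9 and in WT-Veh replicate 1 for 5.

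**Figure D1:**
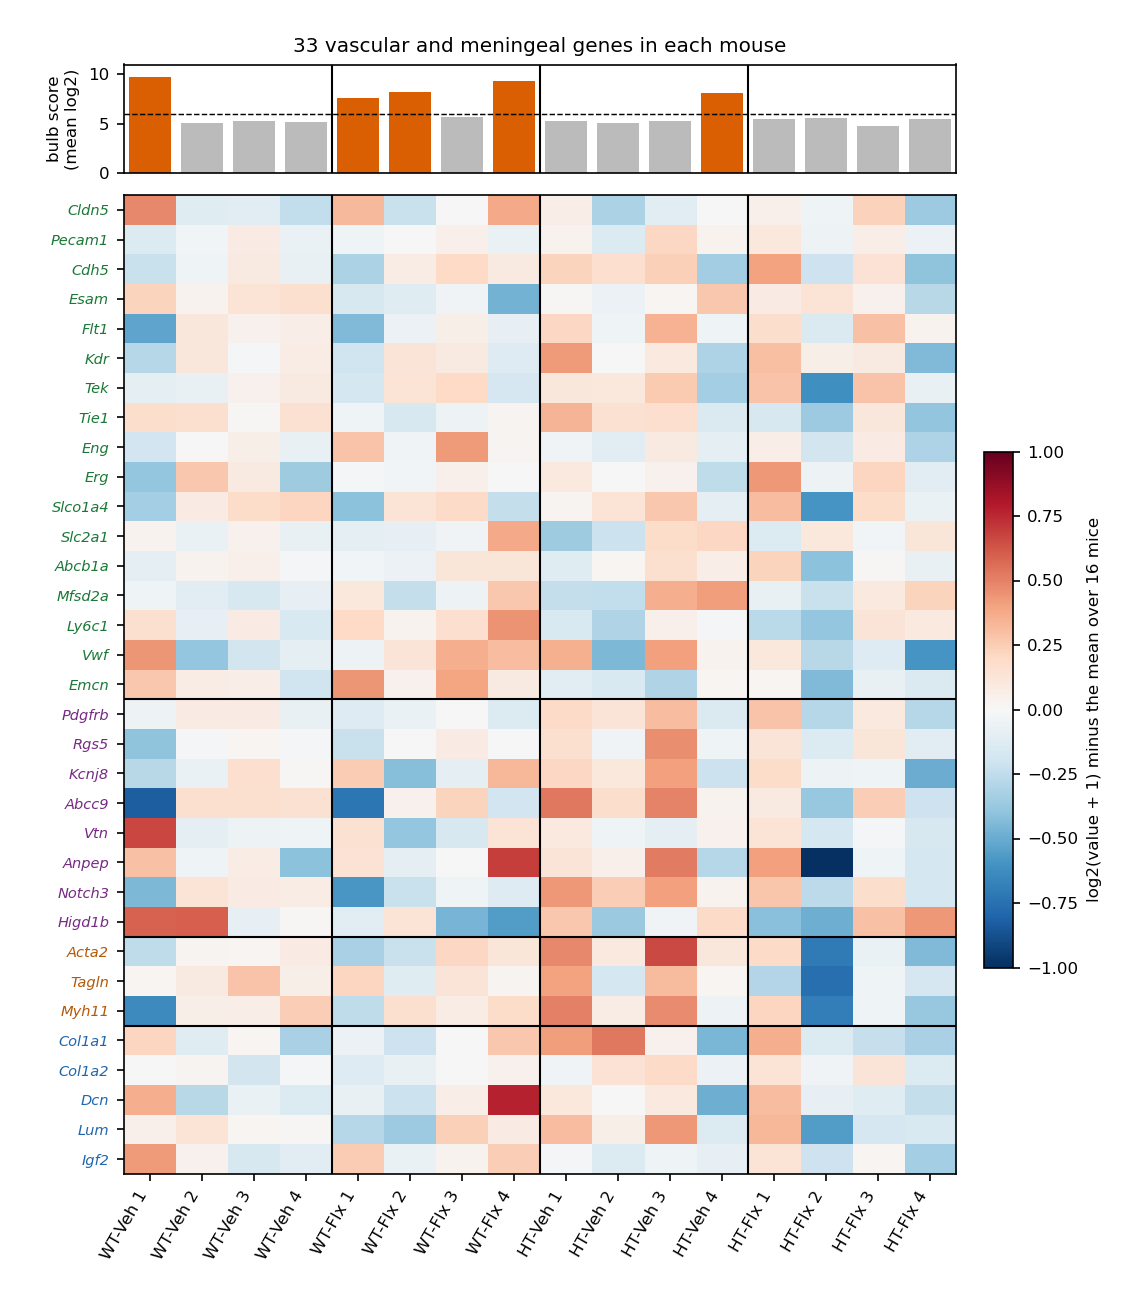
Each cell is the log2(value + 1) of one gene in one mouse minus its mean over the 16 mice (colour scale from -1 to 1), with gene names coloured by class in the order endothelial, pericyte, smooth muscle and fibroblast. The bars above give the olfactory bulb score of each mouse, orange in the 5 mice above the dashed line at 6, and HT-Flx replicate 2 is the mouse in which the smooth muscle genes are lowest.

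The mice also differed in genes that mark another brain region. An olfactory bulb score, the mean log2(value + 1) of 10 bulb marker genes, was 9.73 in WT-Veh replicate 1, 7.61, 8.18 and 9.37 in WT-Flx replicates 1, 2 and 4, and 8.12 in HT-Veh replicate 4. The other 11 mice, including all of HT-Flx but only replicate 3 of WT-Flx, lay between 4.83 and 5.69. Summed over the 10 genes, the level ranged from 602 to 15373 in WT-Veh mice, 897 to 12278 in WT-Flx mice, 743 to 5020 in HT-Veh mice and 636 to 923 in HT-Flx mice. Since 4 of the 5 mice were wild type and 3 were WT-Flx, counts for comparisons with a WT group are also given with this score as a covariate. Arid1b itself averaged 2368 ± 432 in WT-Veh and 1795 ± 160 in HT-Veh, and 2159 ± 233 in WT-Flx and 1636 ± 61.0 in HT-Flx (SD, n = 4), lower in both HT groups, with mice of WT and HT overlapping under vehicle. The deletion removes only part of the gene.

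In the comparisons of genotype and treatment, none of the 33 genes passed an adjusted p of 0.05 (limma, Benjamini-Hochberg over all genes tested). That held for the 4 pairwise comparisons, for genotype over both treatments, for treatment over both genotypes and for their interaction. The shares of all tested genes that passed were 0.0178% for HT-Veh versus WT-Veh, 0.0417% for HT-Flx versus WT-Flx, 0.0398% for HT versus WT over both treatments and 0.0% for each of the others. The values that follow therefore describe genes at an unadjusted p under 0.05, each beside the share of all genes that reached it.

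The 3 contractile genes of smooth muscle were all at an unadjusted p under 0.05 in HT-Flx versus HT-Veh, and no other class had all of its members there. Acta2 (chromosome 19, 34241090 to 34255590), which encodes smooth muscle actin, had normalized read counts of 410.1, 498, 496 and 518 in WT-Veh mice and 391, 419, 565 and 532 in WT-Flx mice, and 682, 524, 774 and 529 in HT-Veh mice and 558, 299, 468 and 361 in HT-Flx mice. Every HT-Veh mouse was above every WT-Veh mouse, although the lowest HT-Veh value and the highest WT-Veh value were close, and HT-Flx overlapped with every other group. Myh11, the smooth muscle myosin heavy chain, read 337, 545, 547 and 621 in WT-Veh mice and 438, 586, 551 and 593 in WT-Flx mice, and 741, 553, 729 and 506 in HT-Veh mice and 608, 324, 508 and 403 in HT-Flx mice. HT-Veh replicates 1 and 3 were the highest of all mice for both genes and HT-Flx replicate 2 the lowest. Tagln, an actin-binding protein of contractile cells, read 265, 277, 318 and 271 in WT-Veh mice and 302, 239, 284 and 265 in WT-Flx mice, and 344, 231, 325 and 264 in HT-Veh mice and 213, 154, 252 and 231 in HT-Flx mice. For Tagln the vehicle groups lay on each other, and 2 of the 4 HT-Flx mice, replicates 1 and 2, were below every other mouse. Tagln overlaps Pcsk7 on the opposite strand.

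HT-Flx versus HT-Veh asks what early fluoxetine left behind in the adult heterozygous cortex. Acta2 was lower in HT-Flx by 33.7%, with a log2 change of -0.59 (SE 0.19, 95% interval -1.01 to -0.18, adjusted p 1.00). The log2 change was -0.46 for Tagln (interval -0.84 to -0.07) and -0.48 for Myh11 (interval -0.89 to -0.06). Abcc9, which encodes the regulatory subunit of the potassium channel of pericytes, was at -0.37 (interval -0.72 to -0.03). Tie1, an endothelial receptor of the angiopoietin system, was at -0.33 (interval -0.64 to -0.02). These were 5 of 33 genes (15.2%) at an unadjusted p under 0.05, all lower, beside 3.07% of the 16814 genes tested and 1.64% in that direction. Single mice carried much of this: the count was 1 without HT-Flx replicate 2, without HT-Veh replicate 1 or without HT-Veh replicate 3, and 2 without HT-Flx replicate 4. It was 7 without HT-Veh replicate 4, the one mouse here with a high bulb score. No member had 2 groups that did not overlap, as 1.99% of all genes did.

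By sign alone, 29 of the 33 genes were lower in HT-Flx than in HT-Veh and 4 were higher, with a median log2 change of -0.07 beside 0.00 over all genes tested. All 8 pericyte genes (median -0.20) and all 3 smooth muscle genes (median -0.48) were lower. The 17 endothelial genes had a median of -0.05 with 14 lower, and the 5 fibroblast genes a median of -0.04 with 4 lower. Without HT-Flx replicate 2 the medians were 0.02 for endothelial, -0.09 for pericyte and -0.32 for smooth muscle genes. Leaving out other single mice put the pericyte median between -0.30 and -0.12, the endothelial median between -0.09 and -0.01 and the fibroblast median between -0.11 and 0.01, the highest pericyte and endothelial values coming without HT-Veh replicate 3 and HT-Flx replicate 4. Among 21 other mural genes tested, 16 were lower, with a median of -0.22. Tropomyosin 2 (Tpm2, -0.35) and caldesmon (Cald1, -0.22), which both bind actin filaments, were the 2 of them at an unadjusted p under 0.05, named after their values were seen. Of the 34 other endothelial and barrier genes, 16 were lower, with a median of 0.01, and of 15 basement membrane genes 8 were lower, with a median of -0.01. The 1 other endothelial gene at an unadjusted p under 0.05 was higher, the tight-junction gene Tjp1 (0.20). Of 38 other fibroblast and meningeal genes 15 were higher and 23 lower (median -0.03), and only Dpp4 (-0.77) was at that p. Of 19 growth factors and Notch ligands 8 were higher and 11 lower (median -0.02), with none at that p. The laminin chain gene Lama2 was the 1 basement membrane gene at an unadjusted p under 0.05 (log2 change -0.43, SE 0.13, adjusted p 1.00).

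**Figure D2:**
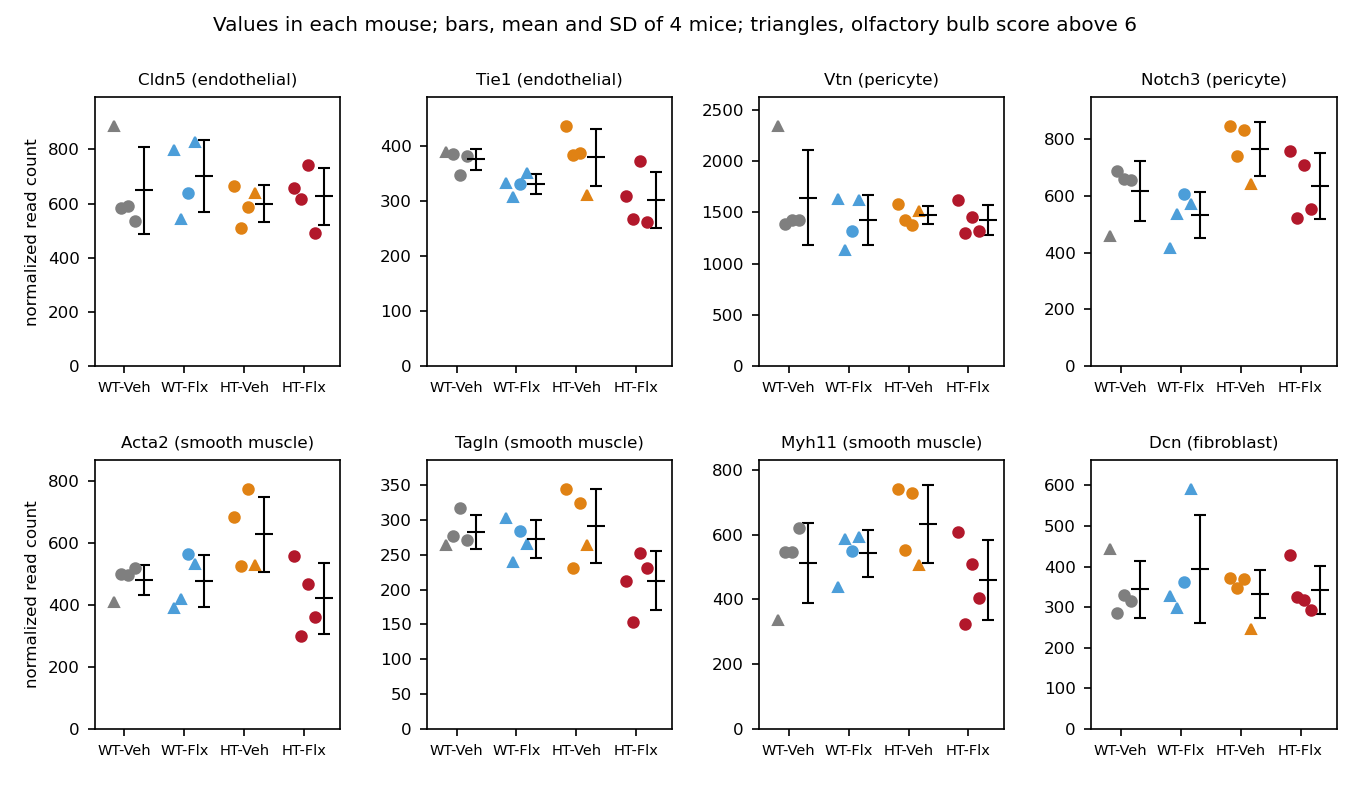
Normalized read counts (y axis, from 0) of 8 genes in each mouse by group. Points are mice, triangles those with an olfactory bulb score above 6, and the bars give the mean and SD of 4 mice, with the HT-Veh mice highest and the HT-Flx mice lowest on average for Acta2, Tagln and Myh11.

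HT-Veh versus WT-Veh asks what loss of 1 Arid1b copy did without the drug. Acta2 was higher in HT-Veh by 29.1% (log2 change 0.37, SE 0.14, interval 0.06 to 0.68, adjusted p 0.922). Notch3, the Notch receptor of mural cells, read 458, 688, 661 and 657 in WT-Veh mice and 846, 742, 832 and 643 in HT-Veh mice, with a log2 change of 0.32 (SE 0.14, interval 0.01 to 0.64, adjusted p 0.922). HT-Veh replicate 4 lay within the WT-Veh range, and WT-Veh replicate 1 was far below the rest. Both are mice with a high bulb score, and without WT-Veh replicate 1 the Notch3 change was 0.19. The 2 genes were 6.06% of the list at an unadjusted p under 0.05, beside 4.88% of the 16832 genes tested and 2.63% in that direction. Acta2 was the only member without overlap between these groups, which 3.84% of all genes had and 2.06% in that direction. The count of 2 became 5 with the bulb score as a covariate or without HT-Veh replicate 4. It was 0 with all 4 groups in the fit and 1 without WT-Veh replicate 1, WT-Veh replicate 4 or HT-Veh replicate 2 and 0 without HT-Veh replicate 1 or 3. Notch3 overlaps Gm17276 on the opposite strand. This comparison shares the HT-Veh mice with the one above, so a high HT-Veh value enters both with opposite sign.

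Of the 33 genes, 24 were higher and 9 lower in HT-Veh than in WT-Veh, with a median of 0.08 beside 0.01 over all genes. The class medians were 0.05 for endothelial, 0.14 for pericyte, 0.32 for smooth muscle and 0.10 for fibroblast genes. Leaving out single mice moved them to between -0.01 and 0.08, 0.06 and 0.27, 0.13 and 0.42, and 0.02 and 0.14, in that order of classes. The smooth muscle median was lowest without WT-Veh replicate 1, the other 3 were lowest without HT-Veh replicate 3, and all 4 were highest without HT-Veh replicate 4. Outside the list, 11 of 15 basement membrane genes were higher, Lama2 by 0.45 (SE 0.12, adjusted p 0.872), with means of 441 ± 43.0 in WT-Veh and 606 ± 91.5 in HT-Veh. Of 21 other mural genes 12 were higher, and 3 were at an unadjusted p under 0.05 (Cald1, Mylk and Cspg4, all higher, named after their values were seen). Of 34 other endothelial and barrier genes 16 were higher and 18 lower (median -0.01), 1 of them lower at an unadjusted p under 0.05. Of 38 other fibroblast and meningeal genes 16 were higher and 22 lower (median -0.03). At that p 3 were higher and 2 lower, beside 2.63% and 2.26% of all genes. They included the widest changes of these lists, Col3a1 (1.00, adjusted p 0.839) and Col6a3 (-0.85, adjusted p 0.909). By mean, Col3a1 was low only among WT-Veh mice (53.5 ± 7.71). Its means were 113 ± 40.1 for HT-Veh, 104 ± 58.6 for HT-Flx and 113 ± 36.3 for WT-Flx. Fluoxetine in wild types gave a log2 change of 1.02 for this gene, so its rise was not particular to the genotype. Among growth factors and Notch ligands, 11 of 19 were higher with a median of 0.15. At an unadjusted p under 0.05 were 2 higher and 1 lower, and none passed an adjusted p of 0.05.

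WT-Flx versus WT-Veh gives the same treatment in wild-type mice. Esam, an adhesion molecule of endothelial tight junctions, read 447, 392, 421 and 428 in WT-Veh and 343, 351, 372 and 275 in WT-Flx, so the groups did not overlap. Its log2 change was -0.34 (SE 0.12, interval -0.60 to -0.07, adjusted p 1.00), which is 20.9% lower. It was the 1 member at an unadjusted p under 0.05 (3.03%, beside 4.2% of 16833 genes and 2.0% that were lower) and the 1 without overlap (2.89% of all genes, 1.09% lower). In HT mice the same gene read 384, 367, 388 and 459.8 under vehicle and 405, 419, 395 and 315 under fluoxetine, with no gap between the groups. A high bulb score was seen in 3 of the 4 WT-Flx mice and 1 WT-Veh mouse, and with the score as a covariate or without WT-Veh replicate 1 the count was 4. It was 3 without WT-Flx replicate 2 and 2 without WT-Veh replicate 3. By sign, 20 of 33 genes were higher in WT-Flx, the smooth muscle median was -0.02 and the pericyte median -0.08, and with the bulb score as a covariate they were 0.06 and -0.01.

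The test of whether fluoxetine acted differently in the 2 genotypes is the interaction, the change in HT minus the change in WT. For Acta2 it was -0.57 (SE 0.26, interval -1.11 to -0.03, adjusted p 0.998). Acta2 was the 1 member of 33 at an unadjusted p under 0.05, beside 4.29% of 17567 genes and 2.29% with a negative sign. Its value was -0.71 with the bulb score as a covariate, where 5 members reached an unadjusted p under 0.05. Within the 11 mice of low score it was -0.83. There WT-Flx is a single mouse, replicate 3, whose Acta2 value was the highest of its group. The count was 0 without HT-Flx replicate 2, HT-Veh replicate 1 or 3, or WT-Flx replicate 3 or 4. It was 2 without HT-Flx replicate 3, HT-Veh replicate 4, WT-Flx replicate 2 or WT-Veh replicate 4, and 3 without HT-Flx replicate 1, HT-Veh replicate 2 or WT-Flx replicate 1. The sign was negative for 27 of 33 genes, with class medians of -0.07 for endothelial, -0.14 for pericyte, -0.57 for smooth muscle and -0.13 for fibroblast genes. Without WT-Veh replicate 1 the pericyte and smooth muscle medians were -0.05 and -0.39. The median of the 95% half-widths over the list was 0.47, so differences of the size seen in most members were not resolvable with 4 mice a group.

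**Figure D3:**
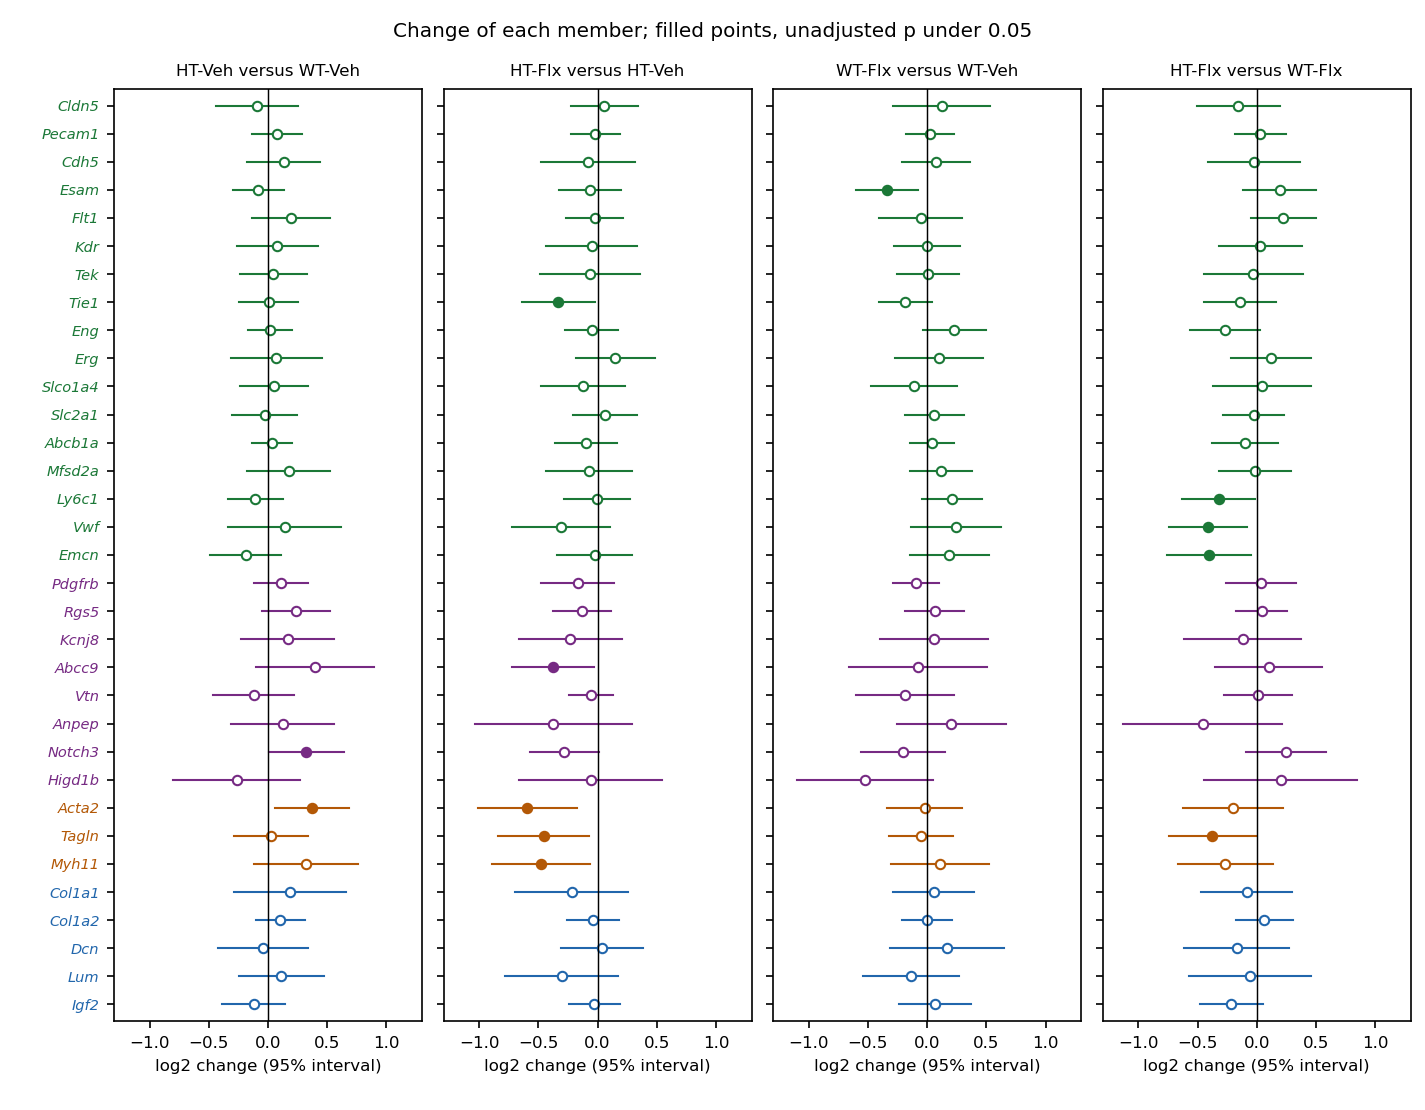
Log2 change (x axis) of each of the 33 genes in the 4 pairwise comparisons, with 95% intervals from limma, genes coloured by class and filled points at an unadjusted p under 0.05. The 3 smooth muscle genes sit left of 0 in HT-Flx versus HT-Veh with intervals that leave out 0, and no gene passed an adjusted p of 0.05.

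HT-Flx versus WT-Flx compares the genotypes after the drug, and 3 of the 4 members at an unadjusted p under 0.05 were endothelial. Vwf, the clotting factor stored by endothelial cells, read 653, 737, 866 and 838 in WT-Flx and 726, 557, 617 and 449 in HT-Flx (log2 change -0.41, SE 0.15, adjusted p 0.391). Emcn, a mucin-like surface protein of veins and capillaries, read 240.4, 182, 232 and 188 in WT-Flx and 179, 129.8, 168 and 160.1 in HT-Flx, without overlap by a narrow margin (log2 change -0.40, SE 0.16, adjusted p 0.430). Ly6c1, a surface protein of the capillary endothelium, read 843, 753, 828 and 1004 in WT-Flx and 609, 563, 803 and 786 in HT-Flx, which overlapped, and was at -0.32. Tagln was at -0.38. These 4 genes, all lower, were 12.1% of the list, beside 10.4% of the 16788 genes tested and 4.87% in that direction. Emcn was the 1 member without overlap, as were 5.83% of all genes and 3.13% in that direction. The bulb score was above 6 in 3 WT-Flx mice and in no HT-Flx mouse. With the score as a covariate 2 members reached an unadjusted p under 0.05, and the value for Emcn was -0.64. The count was 0 without WT-Flx replicate 3, 1 without WT-Flx replicate 1 or 4 and 2 without HT-Flx replicate 2. Over the list 20 of 33 genes were lower.

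Pooling all 16 mice, 3 of 33 genes (9.09%) were at an unadjusted p under 0.05 for genotype, beside 11.9% of all genes tested (6.42% higher and 5.44% lower in HT). Emcn was lower in HT (-0.29, SE 0.10, adjusted p 0.335), as was Ly6c1 (-0.21, SE 0.09), and Notch3 was higher (0.29, SE 0.11, adjusted p 0.380). Under vehicle Emcn read 213, 186, 185 and 154 in WT mice and 164, 159, 143 and 179.6 in HT mice, which overlapped. With the bulb score as a covariate, or within the 11 mice of low score, 1 member was at an unadjusted p under 0.05, and Notch3 was at 0.18 with the covariate. The count was 5 without WT-Veh replicate 3 or 4. Among other endothelial genes the amino acid transporter Slc38a5 had the smallest p (log2 change -0.69, SE 0.17, adjusted p 0.223). It averaged 82.0 ± 12.1 in WT-Veh and 67.6 ± 8.21 in HT-Veh, and 118 ± 16.5 in WT-Flx and 56.4 ± 18.9 in HT-Flx. The list it comes from went both ways. Of its 34 genes 20 were higher and 14 lower in HT (median 0.05), with 3 higher and 3 lower at an unadjusted p under 0.05.

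For treatment over both genotypes, 5 of 33 genes (15.2%) were at an unadjusted p under 0.05, all lower under fluoxetine, beside 3.11% of all genes and 1.74% in that direction. They were Tie1 (-0.26, SE 0.09), Esam (-0.20, SE 0.09), Notch3 (-0.24, SE 0.11), Acta2 (-0.31, SE 0.14) and Tagln (-0.25, SE 0.12), each with an adjusted p of 1.00. Tie1 read 389.7, 385, 347 and 382 in WT-Veh mice and 333, 308, 331 and 351 in WT-Flx mice, and 437, 383, 387 and 311 in HT-Veh mice and 308, 267, 372 and 262 in HT-Flx mice. Its 3 lowest values were in HT-Flx replicates 4 and 2 and WT-Flx replicate 2, and its highest in HT-Veh replicate 1. Within the 11 mice of low bulb score 6 members reached an unadjusted p under 0.05, and Tie1 was at -0.34, Acta2 at -0.41, Tagln at -0.35 and Notch3 at -0.29, but Esam was at -0.04. Leaving out single mice gave counts from 1 to 6. The count was 1 without HT-Flx replicate 4, 2 without HT-Flx replicate 2, HT-Veh replicate 1 or 3 or WT-Veh replicate 3 or 4, and 3 without HT-Veh replicate 4 or WT-Flx replicate 1 or 2. All 8 pericyte and all 3 smooth muscle genes were lower under fluoxetine (medians -0.13 and -0.25), as were 9 of the 17 endothelial genes (median 0.00) and 3 of the 5 fibroblast genes (median -0.02). Without HT-Flx replicate 4 the endothelial and fibroblast medians were 0.04 and 0.01. These pooled values hide a difference between the genotypes. In WT mice alone 3 of the 8 pericyte and 1 of the 3 smooth muscle genes were higher under fluoxetine (medians -0.08 and -0.02). In HT mice alone the medians were -0.20 and -0.48. Acta2 averaged 481 in WT-Veh and 477 in WT-Flx, but 627 in HT-Veh and 422 in HT-Flx.

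A class level, the mean of the log2 values of a class in a mouse relative to the 16-mouse mean, shows how single animals carry these differences. For smooth muscle it was -0.29, 0.06, 0.12 and 0.13 in WT-Veh mice and -0.12, -0.06, 0.14 and 0.11 in WT-Flx mice. The HT-Veh mice were at 0.46, 0.00, 0.48 and 0.03, and those of HT-Flx at 0.04, -0.72, -0.05 and -0.33. The group means were 0.24 ± 0.26 in HT-Veh and -0.26 ± 0.34 in HT-Flx (SD, n = 4), with replicates 2 and 4 of HT-Veh inside the WT range. HT-Flx replicates 2 and 4 were also the lowest of all mice for the endothelial level (-0.22 and -0.17), and replicate 2 was the lowest for the pericyte level (-0.38). The whole range over mice was 0.36 for the endothelial, 0.69 for the pericyte, 1.20 for the smooth muscle and 0.52 for the fibroblast level. In HT-Flx, perivascular macrophage markers summed to between 309 and 491 and blood cell markers to between 2696 and 4125, beside 377 to 541 and 3147 to 4022 in HT-Veh. The part of vessel content, blood or dissection in the differences was not tested.

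**Figure D4:**
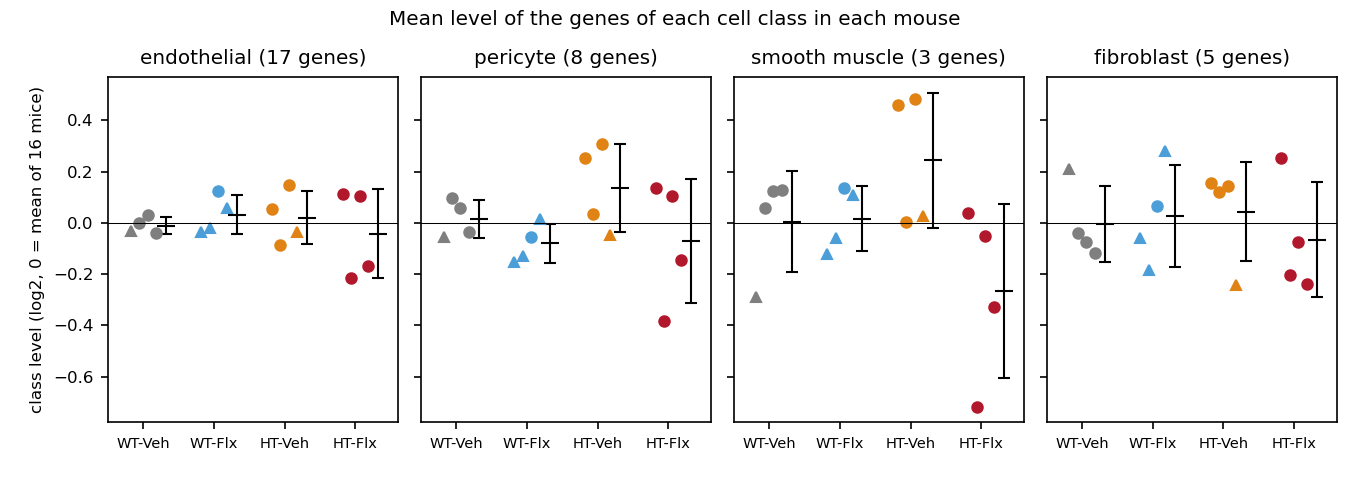
Class level (y axis, log2, 0 = mean of 16 mice) of each mouse by group for the 4 cell classes. Triangles are mice with an olfactory bulb score above 6 and bars the mean and SD of 4 mice, with the smooth muscle level spread from -0.72 to 0.48.

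Members varied together between mice of one group. After centring on the group mean, the median Pearson r over the 528 pairs of members was 0.31 in the 16 mice, with 391 pairs above 0, and 0.52 in the 11 mice of low bulb score, with 460 pairs above 0. For all pairs of genes with a mean of at least 100 the median in the 16 mice was 0.00. That background was not taken in the 11 mice, where WT-Flx is a single mouse. The rise from 0.31 to 0.52 thus cannot be read as particular to the members. These are descriptions over genes that share libraries and are given without a test. In the 16 mice the class medians were 0.26 among pericyte genes, 0.59 among smooth muscle genes and 0.46 between these classes, 0.20 among endothelial genes, 0.29 between endothelial and pericyte genes and 0.51 among fibroblast genes. In the 11 mice they were 0.65 among pericyte genes, 0.68 among smooth muscle genes and 0.72 between these classes, 0.43 among endothelial genes, 0.57 between endothelial and pericyte genes and 0.53 among fibroblast genes. Of these 6 medians the lowest was among endothelial genes in both sets of mice, and the highest was among smooth muscle genes in the 16 mice and between smooth muscle and pericyte genes in the 11.

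Single markers of the 4 classes were compared over mice in a family of 10 relations. Cldn5 read 886, 584, 589.8 and 535 in WT-Veh mice and 796, 544, 638 and 828 in WT-Flx mice, and 663, 509, 587 and 638 in HT-Veh mice and 657, 615, 743 and 492 in HT-Flx mice. Vtn read 2341, 1384, 1423 and 1425 in WT-Veh mice and 1631, 1127, 1315 and 1615 in WT-Flx mice, and 1577, 1428, 1373 and 1514 in HT-Veh mice and 1618, 1299.7, 1454 and 1315 in HT-Flx mice. WT-Veh replicate 1 was the highest mouse for both genes. Over the 16 mice their Pearson r was 0.75 (permutation p = 0.00032, adjusted p 0.0032) and Spearman rho 0.74 (permutation p = 0.00131, adjusted p 0.0131), and r was 0.59 without the 2 mice farthest from the median of Cldn5. Within the 11 mice of low bulb score r was 0.41 (permutation p = 0.211, adjusted p 0.271) and rho 0.44 (permutation p = 0.184, adjusted p 0.276), so the relation did not hold there by this test. The fibroblast proteoglycan gene Dcn read 444, 286, 330.4 and 315 in WT-Veh mice and 328, 298, 361 and 591 in WT-Flx mice, and 371, 347, 369.8 and 246 in HT-Veh mice and 428, 326, 319 and 293 in HT-Flx mice. WT-Flx replicate 4 was its highest mouse and HT-Veh replicate 4 its lowest. The other 5 pairs of Cldn5, Vtn, Acta2 and Dcn had r between -0.03 and 0.58, with adjusted p from 0.0944 to 0.933. Each of the 4 genes was also set against the bulb marker Cdhr1 within the 11 mice, with r from -0.06 to 0.28 and adjusted p from 0.788 to 0.933. These r were not stable. Without the 2 mice farthest from the median of the gene, r was -0.72 for Vtn, 0.57 for Acta2, 0.57 for Dcn and 0.41 for Cldn5, given without a test.

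How the 33 genes moved with the bulb score within groups was then fitted over all 16 mice, a comparison added after the data had been seen. An adjusted p of 0.05 was passed by 3 genes (9.09%), 1 higher and 2 lower, beside 12.7% of 17567 genes (5.16% higher and 7.53% lower). Abcc9 (chromosome 6, 142587862 to 142702315) fell by 0.17 on the log2 scale per unit of score (SE 0.04, adjusted p 0.0191). Flt1 (chromosome 5, 147561604 to 147726011), a receptor for vascular endothelial growth factor, fell by 0.10 (SE 0.03, adjusted p 0.0391), and Vtn (chromosome 11, 78499091 to 78502324) rose by 0.10 (SE 0.03, adjusted p 0.0437). Flt1 read 1840.4, 2865, 2731 and 2784 in WT-Veh mice and 1949, 2549, 2760.1 and 2509.7 in WT-Flx mice, and 3057, 2573, 3373 and 2568 in HT-Veh mice and 2995, 2406, 3254 and 2718 in HT-Flx mice, and WT-Veh replicate 1 and WT-Flx replicate 1 were its lowest. Abcc9 read 189 in WT-Veh replicate 1, 202 and 292 in WT-Flx replicates 1 and 4 and 343 and 345 in HT-Veh replicate 4 and WT-Flx replicate 2, while the 11 mice of low score lay between 257 and 483. Without WT-Veh replicate 1 none of the 3 passed: the coefficients were -0.12 for Abcc9 (adjusted p 0.526), -0.06 for Flt1 (adjusted p 0.668) and 0.03 for Vtn (adjusted p 0.837). None passed without WT-Flx replicate 3 either. Only 1 did without HT-Veh replicate 3 or without WT-Veh replicate 2, 3 or 4, and 6 did without WT-Flx replicate 1.

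At an unadjusted p under 0.05 the score fit had 11 of 33 genes (33.3%, beside 27.8% of all genes), of which 8 were lower (15.3% of all genes) and 3 higher (12.5%). The lower ones were Abcc9, Notch3, Rgs5, Slco1a4, Myh11, Kdr, Eng and Flt1, and the higher ones Vtn, Cldn5 and Igf2. Pericyte genes thus went in both directions, and so did endothelial genes. Without WT-Veh replicate 1 the count was 2. Of 38 other fibroblast and meningeal genes 6 passed an adjusted p of 0.05 and all 6 rose with the score (beside 5.16% of all genes that rose): Fbln2 (0.22 per unit, adjusted p 0.0013), Islr (0.22), Col6a1 (0.16), Igfbp2 (0.16), Bmp6 (0.12) and Ptgds (0.11). Of 34 other endothelial genes 4 fell (beside 7.53% of all genes that fell), among them the phosphatase gene Ptprb (-0.17, adjusted p 0.0048) and Adgrf5 (-0.19, adjusted p 0.013), and the transcription factor gene Sox18 rose (0.15, adjusted p 0.0464). The laminin chain gene Lama5 rose (0.26, adjusted p 0.0024), and so did the ligand genes Wnt7a (0.20) and Pgf (0.17), whereas the ligand gene Jag2 (-0.09), the integrin gene Itga1 (-0.13, adjusted p 0.0228) and Atp13a5 (-0.12, adjusted p 0.0426), a mural transporter gene, fell. Markers of other cells moved with the score as well. Gad1 (0.29) and Gad2 (0.10) of inhibitory neurons rose, as did Aqp1 (0.96) and Clic6 (0.38) of the choroid plexus list. The other 3 of the 5 choroid plexus markers tested fell (list median -0.02, lowest -0.40). The choroid plexus marker Ttr was 17.1 in WT-Veh replicate 1 and highest, at 243, in WT-Veh replicate 4, a mouse of low score. The neuronal genes Camk2a (-0.15), Rbfox3 (-0.08) and Slc17a7 (-0.07) and the microglial genes Csf1r (-0.15) and P2ry12 (-0.09) fell. By sign, 3 of the 8 neuron markers rose and 5 fell, and 3 of the 7 microglia markers rose and 4 fell. No astrocyte endfoot, blood cell or perivascular macrophage marker passed an adjusted p of 0.05. The part of these other cells in the values of the vascular genes was not tested. Without WT-Veh replicate 1, 2 of the 6 fibroblast genes, Fbln2 (0.26, adjusted p 0.0284) and Col6a1 (0.22, adjusted p 0.0487), still passed, and none of the endothelial, mural, basement membrane or ligand genes named here did. Of the neuronal and microglial genes named here only Gad1 (0.27, adjusted p 0.00041) still passed, and Aqp1 and Clic6 passed too.

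**Figure D5:**
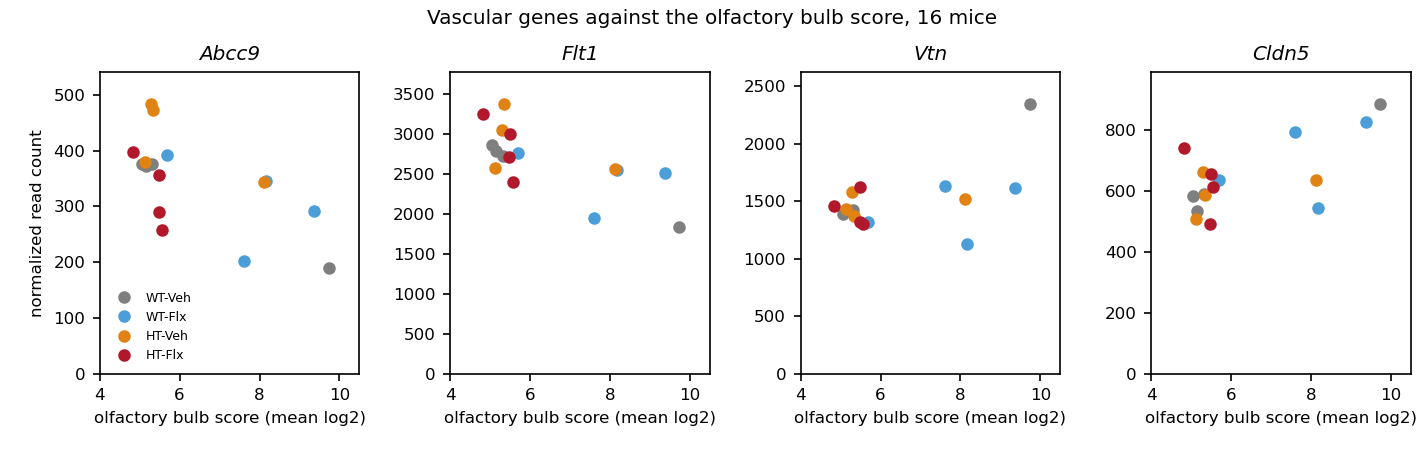
Normalized read count (y axis, from 0) of 4 genes against the olfactory bulb score (x axis, mean log2 of 10 markers) in 16 mice coloured by group. Abcc9 and Flt1 are lower and Vtn and Cldn5 higher in WT-Veh replicate 1, at a score of 9.73, than in the other WT-Veh mice.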

How the data were processed

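RNA was measured in the medial prefrontal cortex of 16 male mice, 1 sample each, and samples were grouped by their titles. The authors made stranded poly-A libraries, estimated transcript abundance with Salmon (1.1.0, GC bias correction) on GRCm38, summed it to genes with tximport and normalized it in DESeq2 (1.30.1). The deposited signal holds normalized read counts (estimated counts over size factors). Low values were not whole multiples of a step, taken as the most frequent low value of each mouse. Of the values below 10 steps, 13.4% to 49.1% lay within 0.05 of a step from a whole multiple. Reads could therefore not be recovered, the depth is unknown, and no interval or floor that needs it is given. Normalized totals lay between 92.8% and 104% of their mean, and no columns were identical.

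Since these are not counts, limma (3.58.1, R 4.3.3, lmFit and eBayes with trend) was run on log2(value + 1), over genes of at least 10 in at least 4 samples of the fit, with two-sided p adjusted by Benjamini and Hochberg over all genes tested. Log2 changes are on that scale, which understates changes of low genes. The 4 pairwise fits used only the groups compared. Genotype, treatment and interaction used all mice. Correlations used 100000 permutations, two-sided, adjusted over the 10 relations. The fits were tested on simulated data. Gene positions came from GENCODE M21 (GRCm38).

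The 33 members, the other lists and the bulb score cut of 6 were chosen with earlier results of these data known. Log2 changes are named for members at an unadjusted p under 0.05 (at most the 6 smallest). Genes of other lists are named from those at an adjusted p under 0.05 in the bulb score fit. A planned rule was to name the 2 smallest p of each pathway list over both treatments or genotypes. Of those genes only Slc38a5 is given there. Genes of other lists named in the pairwise comparisons were picked after their values were seen. Alternatives were pseudocounts of 0.1 and 8, no filter or a mean of at least 100, upper quartile and quantile normalization, quality weights, a replicate block, the bulb score as covariate, only mice of low score, all 4 groups in a fit, and leaving out each mouse. The fit on the bulb score and its alternatives were added after seeing the data.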

Additional observations from a re-analysis of the deposited data

Results flagged for a closer look

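In groups of 4 mice, a value far from the other 3 by Dixon's test was found in 8 of 92 groups of values checked. These were 19 members and the 4 class levels in each group. The members were picked from these data, by an unadjusted p under 0.05 in a fit or as a class marker. Chance flags about 1 in 20 only for values not picked this way. All flagged genes were among the 11 members at that p in the bulb score fit, which leaned on WT-Veh replicate 1. The share of that mouse is thus partly built in. WT-Veh replicate 1, the mouse with the highest olfactory bulb score (9.73), held 7 of the 8. There Cldn5 was 886 (535 to 590 in the other 3 WT-Veh mice) and Vtn was 2341 (1384 to 1425). In the same mouse Flt1 was 1840 (2731 to 2865), Rgs5 was 2646 (3455 to 3543), Abcc9 was 189 (372 to 375) and Notch3 was 458 (657 to 688). Its smooth muscle class level was -0.288 on the log2 scale (0.06 to 0.13). The eighth was the fibroblast class level of HT-Veh replicate 4, at -0.243 (0.12 to 0.15 in the other 3), a mouse with a bulb score of 8.12. The part of the bulb score in these values was not tested.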

How the results depend on the processing

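In the 7 designed comparisons the number of members passing an adjusted p of 0.05 was 0 under every alternative run, the replicate block included (0 in each comparison). The replicate numbers did not pair the mice: deviations of same-numbered mice correlated between -0.23 and 0.31, and in no comparison did every pair exceed 0.1. With the block, 3 members were at an unadjusted p under 0.05 in WT-Flx versus WT-Veh, and 4 were in the interaction, beside 1 in each without it. The log2 change of each member named for these comparisons kept its sign under every alternative run. So did that of Lama2, Tpm2, Cald1, Mylk, Cspg4 and Slc38a5, whereas class medians near 0 did not. Col3a1, Col6a3, Tjp1 and Dpp4 are given from the main fit only. For HT-Flx versus HT-Veh, 241 genes were higher and 275 lower at an unadjusted p under 0.05, and 173 higher and 352 lower with a common upper quartile. Genes called of all tested ranged from 0 to 21 for HT-Veh versus WT-Veh (3 in the report; 21 with the bulb score as covariate), from 0 to 23 for HT-Flx versus WT-Flx (7 in the report), from 0 to 12 for WT-Flx versus WT-Veh (0 in the report; 12 with quality weights) and from 1 to 23 for genotype over both treatments (7 in the report). In the bulb score fit, members called fell from 3 to 0 with the replicate block and to 0 without the 2 mice of highest score, and ranged from 0 to 6 when single mice were left out. Genes called of all 17567 there fell from 2230 to 62 without those 2 mice, and to 154 without WT-Veh replicate 1. Without the 2 mice the coefficient of Igf2 turned from 0.06 to -0.014. The correlation of Cldn5 and Vtn was 0.41 in the 11 mice of low score. None of the relations that turned sign passed its test. Cldn5 with Acta2 (-0.03) was 0.081 after centring on group means and 0.21 in the 11 mice. Vtn with Acta2 (0.04) was -0.0051 after centring. Among the 11 mice Vtn with Cdhr1 (-0.06) was 0.37 and Acta2 with Cdhr1 (0.03) was -0.48 after centring. That centring used the mean of all 4 mice of a group, including mice of high score left out of the 11. The 0.37 and -0.48 are thus not correlations within groups of the 11 mice. The cause was not tested for any of the changes given here. With 4 mice a group and unknown depth, the median 95% half-width of a member's log2 change was 0.31 to 0.34 in the pairwise fits, so smaller differences were not resolvable.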
